A study of Mus musculus with 17 samples.

Results

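The enzymes of the tricarboxylic acid (TCA) cycle and the itaconate-forming enzyme of activated macrophages were followed in mouse bone marrow macrophages and in the osteoclast precursors they become. Members were taken by symbol and comprised 9 genes of the 41388 counted: Cs, Idh1, Idh2, Idh3a, Ogdh, Suclg1, Fh1, Mdh2 and Acod1. All 9 passed the filter on low counts in every comparison.

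The RNA-seq held 17 libraries in 4 groups. Bap1flox mice carry loxP sites in both copies of the deubiquitinase gene Bap1 and have no Cre, and Bap1LysM mice carry the same alleles with Cre inserted in the lysozyme M gene Lyz2, which drives deletion in myeloid cells and disrupts that Lyz2 copy. The study's methods give these mice as LysMCre+/-, which would leave the other Lyz2 copy intact. Marrow macrophages grown with M-CSF (BMMs) gave 3 libraries of each genotype, and cells given M-CSF and RANKL at 100 ng/ml for 24 h (pre-osteoclasts, preOCs) gave 6 Bap1flox and 5 Bap1LysM libraries. The preOCs came from 20-week-old male mice, and the age of the mice behind the BMMs is not given in the sources used here. Nothing states that the RANKL comparison used the same mice for both cell stages, so p-values measure the spread between libraries.

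The libraries held 37967542 to 61369441 counts. Levels are CPM, each gene's share of a library's counts scaled by TMM (trimmed mean of M-values) factors, or the same per kilobase of exon, RPKM, where genes are compared with each other. The labelled cell states matched their markers: with RANKL, 10 of 10 osteoclast markers rose in both genotypes, and 8 of 8 macrophage markers fell in Bap1flox and 7 of 8 in Bap1LysM. Replicates 1 to 3 and 4 to 6 form 2 library sets, with mitochondrial genes at 0.481 to 1.07% of counts in the first and 2.36 to 5.26% in the second. In preOCs numbered 1, 2, 4, 5 and 6 the share was 1.02, 1.07, 3.38, 3.71 and 5.26% in Bap1LysM. It was lower in each same-numbered Bap1flox library, at 0.667, 0.481, 2.84, 2.36 and 3.64%. The part of this share in the members' values was not tested. Lyz2 in Bap1LysM libraries was 0.148 to 0.473% of the Bap1flox mean, except in replicate 1, where it was 45.2% in BMMs and 79.7% in preOCs. Bap1 itself was at 71.8 to 89.3 CPM in Bap1flox and 57.5 to 83.8 CPM in Bap1LysM libraries, and its counts do not separate deleted from intact copies. The libraries labelled Bap1LysM BMM 1 and Bap1LysM OC 1 therefore stand apart in Lyz2 from the other libraries of their genotype, and which libraries depart from the stated genotype cannot be told apart from these counts. Members are given with and without these libraries, as are the called genes of the lists in the genotype comparisons; the lists in the RANKL comparison of Bap1LysM are given with them only.

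The TCA cycle runs in the mitochondrial matrix. It joins acetyl-CoA to oxaloacetate, oxidises the resulting citrate step by step back to oxaloacetate, and passes the electrons to the respiratory chain. Osteoclasts are rich in mitochondria, and resorbing bone costs ATP. In macrophages activated by bacterial products, Acod1 (also called Irg1) takes cis-aconitate out of the cycle and turns it into itaconate, which inhibits succinate dehydrogenase. Idh1 lies outside the cycle: it is the cytosolic NADP-linked isocitrate dehydrogenase, Idh2 is its mitochondrial NADP-linked relative, and Idh3a is the catalytic subunit of the NAD-linked enzyme of the cycle proper.

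In the GRCm38 annotation of the count tables, Cs spans chr10:128337832-128362479, Idh1 chr1:65158616-65186500, Idh2 chr7:80094846-80115392, Idh3a chr9:54586511-54604661, Ogdh chr11:6291633-6356642, Suclg1 chr6:73248382-73276911, Fh1 chr1:175600374-175625635, Mdh2 chr5:135778480-135790398 and Acod1 chr14:103046977-103056573. Counts cover the exons of these protein-coding genes. Kmo runs antisense to Fh1 but shares 0 exonic bases with it, and 0.403% of the 75-base words of Cs occur also in its retrogene Csl, so near-identical copies touch little of these counts.

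Promoter sequences, from 250 bases before to 50 after the transcript start, were found for 8 of the 9 members in RefSeq on GRCm38.p6, and Idh3a was not matched. The 5 below are shown because their genes carry the contrasts of the report: Cs and Mdh2 rose with RANKL in both genotypes, Acod1 rose in Bap1flox, Idh1 fell, and Idh2 was lower in Bap1LysM preOCs. Capitals mark matches, on either strand, to any of 15 motifs: GGGCGG (the GC box), CCAAT (the CCAAT box), CACGTG (the E-box), AAGGTCA (estrogen-related receptors), GCATGCGC (part of the NRF1 site), TGACGTCA (the cyclic AMP element, CRE), CCGGAAG (ETS factors), GAGGAAG (PU.1), TGANTCA (AP-1), TGGAAAA (NFAT), AAANNGAAA (part of the interferon element), TTCNNNGAA (STAT factors), GGGANTTCC (a form of the NF-kB site), TTGCNNAA (C/EBP factors) and TATAAA (the TATA box).
Cs promoter, chr10:128337477-128337776, plus strand: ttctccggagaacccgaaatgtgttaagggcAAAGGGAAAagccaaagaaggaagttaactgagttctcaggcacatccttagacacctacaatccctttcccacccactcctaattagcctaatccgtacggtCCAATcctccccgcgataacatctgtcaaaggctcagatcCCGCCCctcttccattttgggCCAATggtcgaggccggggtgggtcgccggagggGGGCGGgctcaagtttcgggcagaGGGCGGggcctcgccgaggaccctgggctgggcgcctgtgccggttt
Mdh2 promoter, chr5:135778399-135778698, plus strand: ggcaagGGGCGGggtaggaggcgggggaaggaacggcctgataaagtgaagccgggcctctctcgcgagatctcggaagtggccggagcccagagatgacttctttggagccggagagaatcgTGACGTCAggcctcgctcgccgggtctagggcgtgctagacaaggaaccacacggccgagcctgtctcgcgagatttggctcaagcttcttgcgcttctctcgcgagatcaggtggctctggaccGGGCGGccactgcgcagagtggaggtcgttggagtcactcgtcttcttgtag
Acod1 promoter, chr14:103046762-103047061, plus strand: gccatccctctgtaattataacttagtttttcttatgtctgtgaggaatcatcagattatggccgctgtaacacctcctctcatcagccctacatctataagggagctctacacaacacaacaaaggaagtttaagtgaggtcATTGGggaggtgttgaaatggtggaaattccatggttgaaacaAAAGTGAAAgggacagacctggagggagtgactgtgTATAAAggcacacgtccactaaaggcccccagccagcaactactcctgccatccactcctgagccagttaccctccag
Idh1 promoter, chr1:65186430-65186729, minus strand: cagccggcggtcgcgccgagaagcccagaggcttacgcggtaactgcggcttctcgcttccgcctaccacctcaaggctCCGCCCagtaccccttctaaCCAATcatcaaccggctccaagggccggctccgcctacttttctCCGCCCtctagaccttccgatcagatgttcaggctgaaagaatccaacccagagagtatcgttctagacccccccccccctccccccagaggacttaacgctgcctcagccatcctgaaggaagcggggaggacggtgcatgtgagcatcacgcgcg
Idh2 promoter, chr7:80115301-80115600, minus strand: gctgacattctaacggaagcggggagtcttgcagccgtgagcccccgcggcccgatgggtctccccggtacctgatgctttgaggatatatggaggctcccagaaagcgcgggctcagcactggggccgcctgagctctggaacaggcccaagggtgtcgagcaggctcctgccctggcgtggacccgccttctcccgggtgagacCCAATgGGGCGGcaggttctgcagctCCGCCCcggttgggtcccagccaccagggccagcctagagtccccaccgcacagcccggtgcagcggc

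The Cs promoter held 3 GC boxes and 2 CCAAT boxes, Mdh2 held 2 GC boxes and 1 CRE, and Idh1 and Idh2 each held 2 GC boxes and 1 CCAAT box. RefSeq lists a further Idh1 promoter at chr1:65179093-65179392, which held 1 GC box and no CCAAT box, and 6 for Ogdh, and the first of each member's entries is the one described unless stated. A GC box occurred in at least 1 listed promoter of 6 of the 8 members and in 35.7% of all 32851 promoters, and a CCAAT box in 6 of 8 and 37.4%. The CRE occurred in 2 of the 8, Mdh2 and Ogdh, and in 1.79% of all promoters. Acod1 was the only member with a TATAAA match, which lies 28 bases before its start and occurs in 13.6% of all promoters; it held 1 CCAAT box and no GC box. The interferon element's letters occurred in Cs and Acod1 and in 10.6% of all promoters, and none of the 8 had a match to the NF-kB form given above, found in 1.68%. Motif windows of different factors can overlap, and a match describes letters only.

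In Bap1flox BMMs the order per length began with Idh1 at 97.8 ± 8.42 RPKM (SD, n = 3), followed by Cs at 74.9 ± 2.79, Mdh2 at 64.3 ± 10.4, Idh2 at 42.1 ± 1.16, Ogdh at 37.3 ± 1.22 and Fh1 at 19.1 ± 4.18. Suclg1 at 9.37 ± 0.24 and Idh3a at 8.56 ± 1.67 RPKM overlapped in their libraries, and Acod1 was lowest at 0.882 ± 0.306. In Bap1flox preOCs Mdh2 led at 255 ± 38 RPKM (SD, n = 6), and its libraries overlapped those of Cs at 179 ± 16.3. Idh2 at 84.9 ± 11.1, Ogdh at 65.1 ± 7.35, Idh3a at 60.6 ± 12.2 and Idh1 at 56.6 ± 13.6 RPKM formed a run in which each overlapped its neighbour. Fh1 at 26.6 ± 4.66 overlapped Suclg1 at 21.3 ± 2.49, and Acod1 stayed lowest at 5.8 ± 2.36 RPKM. Idh1 thus moved from the highest level in BMMs to rank 6 in preOCs.

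**Figure D1:**
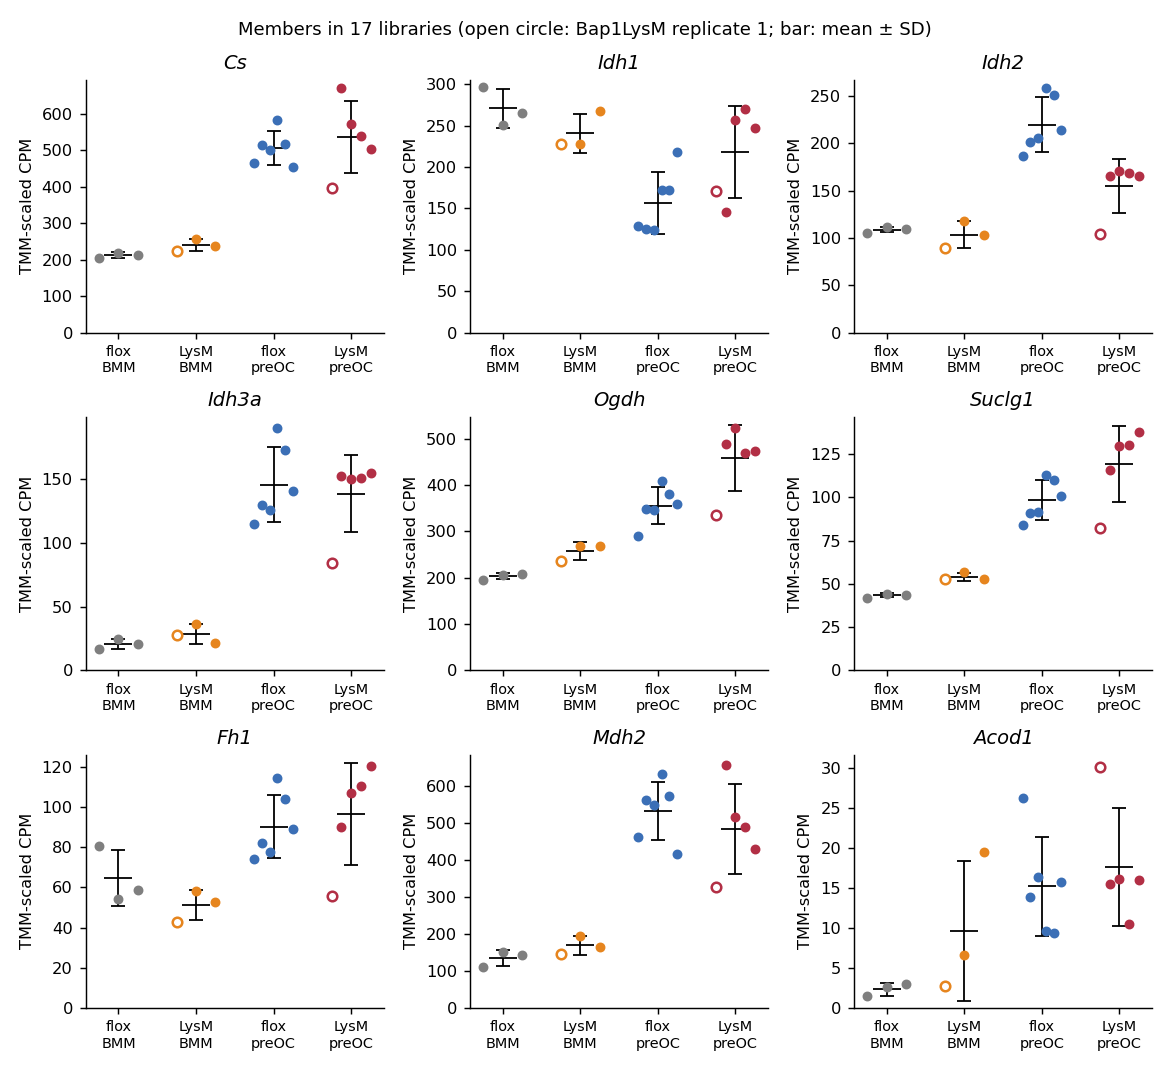
TMM-scaled CPM (y axis, linear, from 0) of each member in each library of the 4 groups (x axis), with bars for the mean ± SD and open circles for the Bap1LysM replicate 1 libraries. Idh3a, Mdh2 and Cs stand higher in every preOC library than in every BMM library, Idh1 is lower in Bap1flox preOCs than in BMMs, and Acod1 is spread widely in the Bap1LysM BMMs, from 2.78 to 19.5 CPM.

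To see what RANKL does to the cycle, preOCs were compared with BMMs within replicates 1 to 3, the numbers present at both stages. In Bap1flox cells 7 of the 9 members rose and 1 fell. The background is high: of 13637 genes tested, 58.1% passed the adjusted p threshold of 0.05, 29.4% higher and 28.7% lower. The groups did not overlap for 8 of the 9 members, as for 71.1% of all genes. The median log2 fold change was 1.03 over the members and -0.03 over all genes. Markers of other cells moved in the same contrast. Of 3 B and plasma cell markers tested 2 fell, Ighm 12.3-fold and Cd79b 3.38-fold lower in Bap1flox preOCs, 1 of 11 neutrophil markers fell, Mmp8 at 4.01-fold lower, and 1 of 6 stromal and 1 of 3 dendritic cell markers rose, Dcn 2.44-fold and Ccr7 3.15-fold. In Bap1LysM the same 2 B and plasma cell markers fell, Ccr7 and Itgax rose, while 0 of 11 neutrophil and 0 of 6 stromal markers passed by edgeR, with 1 and 0 at an unadjusted p under 0.05. The part of these cells in the members' values was not tested.

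Idh3a, the catalytic subunit of NAD-linked isocitrate dehydrogenase, rose most among the 20 genes of the TCA cycle list read below. It was at 16.6, 24.7 and 20.4 CPM in the Bap1flox BMMs and at 115, 130.1 and 126 CPM in preOCs 1 to 3. Every preOC library was thus several times above every BMM library, a log2 fold change of 2.58 (SE 0.26, edgeR adjusted p = 4.42e-05), or 5.98-fold. Mdh2, mitochondrial malate dehydrogenase, was at 110, 150.1 and 143 CPM in BMMs and at 462, 563 and 548 CPM in preOCs, 3.88-fold higher (log2 fold change 1.96, SE 0.24, edgeR adjusted p = 0.000116). Cs, citrate synthase, which performs the entry step, was at 203, 219 and 213 CPM in BMMs and at 465, 516 and 502 CPM in preOCs. The rise was 2.32-fold (log2 fold change 1.21, SE 0.16, edgeR adjusted p = 0.000185), and the libraries of each stage lay close together.

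Suclg1, the alpha subunit shared by both succinyl-CoA synthetases, was at 42.0 to 44.2 CPM in BMMs and at 83.9 to 91.5 CPM in preOCs 1 to 3 (2.04-fold, edgeR adjusted p = 6.86e-05). Ogdh, the E1 subunit of the 2-oxoglutarate dehydrogenase complex, was at 196 to 208 CPM in BMMs and at 289 to 348 CPM in preOCs (1.6-fold, edgeR adjusted p = 0.00184). Idh2 was at 106, 112 and 109.7 CPM in BMMs and at 187, 201 and 206 CPM in preOCs (1.8-fold, edgeR adjusted p = 0.00112). Fh1, fumarase, did not pass: it was at 80.8, 54.3 and 58.9 CPM in BMMs and 74.4, 82.3 and 77.7 CPM in preOCs, and its groups overlapped through Bap1flox BMM 1 (log2 fold change 0.26, SE 0.2, edgeR adjusted p = 0.291). By voomWithQualityWeights of limma, which weights libraries by quality, Fh1 passed with a log2 fold change of 0.45, where 76.2% of all genes passed.

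Idh1 went the other way. Its CPM was 297, 251 and 265 in Bap1flox BMMs and 129, 125 and 124 in preOCs 1 to 3. No library of one stage reached the other, and the level was 2.17-fold lower in preOCs (log2 fold change -1.12, SE 0.10, edgeR adjusted p = 3.09e-05). Bap1flox preOCs 4 to 6, which this contrast did not use, were at 173, 173 and 218 CPM, above preOCs 1 to 3 and below every BMM library. The per-length ratio of Idh1 to Idh2, a measure picked after the values were seen and one that library scaling cannot move, was 2.1 to 2.62 in Bap1flox BMMs and 0.563 to 0.948 in the 6 Bap1flox preOC libraries. It was 1.8 to 2.44 in Bap1LysM BMMs and 0.826 to 1.53 in Bap1LysM preOCs.

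**Figure D2:**
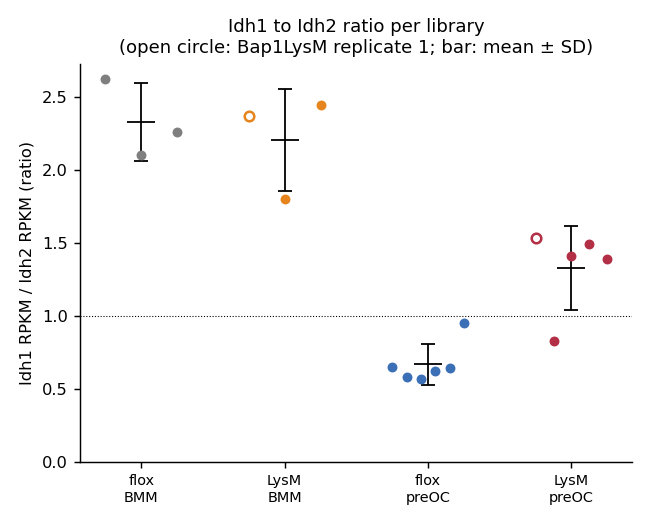
Ratio of Idh1 RPKM to Idh2 RPKM (y axis, from 0) in each library by group (x axis), with bars for the mean ± SD, open circles for Bap1LysM replicate 1 and a dotted line where the levels are equal. BMM libraries lie at 1.8 or above, the Bap1flox preOC libraries below 1, and 4 of the 5 Bap1LysM preOC libraries between 1.39 and 1.53.

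Acod1 showed the largest RANKL fold change of the 9 members in Bap1flox cells, from a low base. It was at 1.41, 2.58 and 2.95 CPM in BMMs and at 26.3, 13.9 and 16.4 CPM in preOCs 1 to 3 (8.13-fold, log2 fold change 3.02, SE 0.64, edgeR adjusted p = 0.00272). The groups did not overlap, and preOCs 4 to 6, which this fit did not use for the contrast, were at 9.56, 9.42 and 15.7 CPM. Even so, Acod1 stayed below the other 8 members per length.

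In Bap1LysM cells 5 members rose with RANKL and 1 fell, where 38.9% of genes passed, 21.2% higher and 17.7% lower. Idh3a was at 27.9, 36.2 and 21.0 CPM in BMMs and at 84.2 and 153 CPM in preOCs 1 and 2 (4.15-fold, edgeR adjusted p = 0.000482), and the lower preOC value is that of the library labelled Bap1LysM OC 1. Mdh2 rose 2.9-fold (edgeR adjusted p = 0.00142), Cs 2.22-fold (edgeR adjusted p = 0.000958), Suclg1 1.83-fold (edgeR adjusted p = 0.000665) and Ogdh 1.59-fold (edgeR adjusted p = 0.00588). Idh1 fell from 227, 228 and 268 CPM in BMMs to 171 and 146 CPM in preOCs, a log2 fold change of -0.61 (SE 0.12, edgeR adjusted p = 0.00289). Bap1LysM preOCs 4 to 6, which this contrast did not use, were at 257, 270.2 and 247 CPM, within or just above the range of the Bap1LysM BMMs. With the Bap1LysM libraries fitted alone Ogdh did not pass (log2 fold change 0.68, edgeR adjusted p = 0.0601).

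Idh2, Fh1 and Acod1 did not pass in Bap1LysM. Idh2 was at 89.6, 118 and 103 CPM in BMMs and at 105 and 165 CPM in preOCs (log2 fold change 0.38, SE 0.17, edgeR adjusted p = 0.109). Acod1 was at 2.78, 6.67 and 19.5 CPM in BMMs and at 30.2 and 15.5 CPM in preOCs (log2 fold change 1.25, SE 0.65, edgeR adjusted p = 0.154), so the BMM library 3 lies above preOC library 2. Fh1 was at a log2 fold change of 0.50 (SE 0.22, edgeR adjusted p = 0.101). Leaving out both replicate 1 libraries leaves Bap1LysM OC 2 as the only preOC library of its genotype, which the fit assumes to vary like the other groups. In that fit Idh2 was at a log2 fold change of 0.58, Fh1 at 0.69 and Acod1 at 0.25 (edgeR adjusted p = 0.00377, 0.0325 and 0.772). The members that passed with all libraries were at 2.41 for Idh3a, 1.86 for Mdh2, 1.43 for Cs, 1.08 for Suclg1, 0.86 for Ogdh and -0.77 for Idh1 there, with edgeR adjusted p of 3.24e-05 to 0.00258. Without Bap1LysM BMM 3 alone, Acod1 passed at 2.26 (edgeR adjusted p = 0.0136), and without Bap1LysM OC 2 alone, which leaves Bap1LysM OC 1 alone under the same assumption, Ogdh did not pass at 0.38 (edgeR adjusted p = 0.0511).

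**Figure D3:**
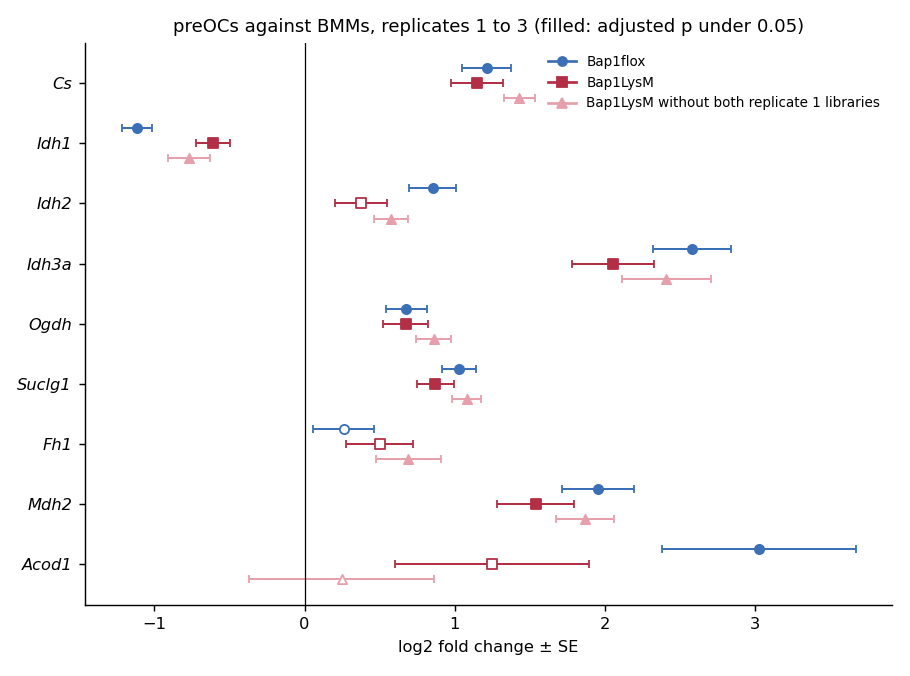
Log2 fold change (x axis) of preOCs against BMMs, replicates 1 to 3, for each member (y axis) in Bap1flox, in Bap1LysM, and in Bap1LysM without both replicate 1 libraries, where 1 preOC library remains; bars are SE and filled symbols passed the adjusted p. Idh1 is the only member below 0 in all 3 series, and the Acod1 values run from 3.02 in Bap1flox to 0.25 in the last series.

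The difference of the RANKL response between genotypes was tested as an interaction. By edgeR 0 of the 9 members passed, as did 0 of 13637 genes (0%). At an unadjusted p under 0.05 there was 1 member, Idh1, and 1719 genes, and voomWithQualityWeights and DESeq2 likewise called 0 members, where they called 0% and 0.829% of genes. The estimated fall of Idh1 was smaller in Bap1LysM without passing (interaction on the log2 scale 0.51, SE 0.15, edgeR adjusted p = 0.333). Acod1 had an interaction of -1.77 (SE 0.91, edgeR adjusted p = 0.45), which ran from -2.34 to -0.76 with each library left out and was -0.76 without Bap1LysM BMM 3. Idh3a was at -0.52, Idh2 at -0.47, Mdh2 at -0.42, Fh1 at 0.24, Suclg1 at -0.16, Cs at -0.06 and Ogdh at -0.00484, with edgeR adjusted p of 0.435 to 0.996. Without both Bap1LysM replicate 1 libraries, Bap1LysM OC 2 stands alone, and only the sizes of the interaction are given. Acod1 was at -2.77, Idh1 at 0.35, Idh2 at -0.28, Idh3a at -0.17, Mdh2 at -0.09 and Fh1 at 0.43. Cs, Ogdh and Suclg1 were at 0.22, 0.18 and 0.05 there. The 3 BMM and 2 to 3 preOC libraries per genotype, 1 of them Bap1LysM OC 1, leave these differences with wide errors. The RANKL and genotype contrasts share libraries, so their values are not independent of each other.

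The same RANKL contrast was read in the wider cycle, a list of 20 genes that holds 8 of the members. Idh1, which lies outside the cycle proper, is counted in this list. In Bap1flox cells 18 of the 20 rose and 1, Idh1, fell, where 29.4% of all genes rose and 28.7% fell, and the list's median was 0.82 against -0.03 for all genes. Outside the members the remaining subunits of the 2-oxoglutarate dehydrogenase complex, Dlst and Dld, rose 2.32-fold and 2.21-fold. The succinate dehydrogenase subunits Sdha, Sdhb, Sdhc and Sdhd, which feed electrons to the respiratory chain, rose 1.72-fold, 1.8-fold, 1.57-fold and 1.94-fold. The regulatory subunits Idh3b and Idh3g rose 1.5-fold and 1.47-fold, well short of the catalytic Idh3a. In Bap1LysM cells 17 of the 20 rose and 1 fell, where 21.2% and 17.7% of all genes did, with a median of 0.69 against 0.01.

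**Figure D4:**
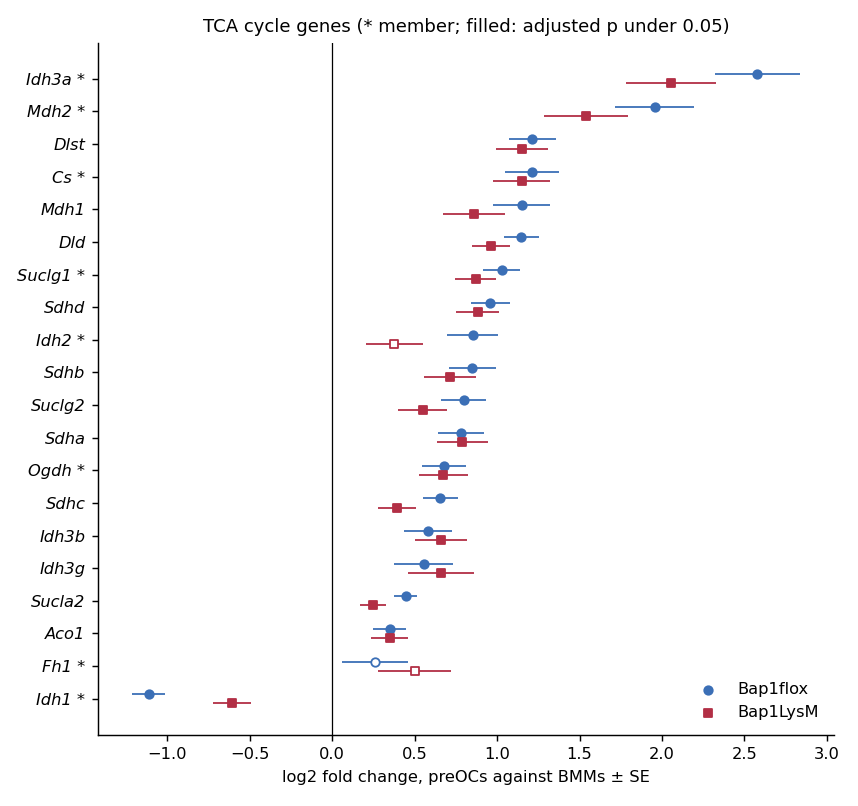
Log2 fold change (x axis) of preOCs against BMMs, replicates 1 to 3, for the 20 genes of the TCA cycle list, Idh1 included (y axis, sorted by the Bap1flox value, members starred), in Bap1flox and Bap1LysM. Bars are SE and filled symbols passed the adjusted p. The 19 genes other than Idh1 lie above 0 in both genotypes, and Fh1 passed in neither.

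Among genes that feed the cycle, 8 of 19 tested rose and 4 fell in Bap1flox, where 29.4% of all genes rose and 28.7% fell, with a median of 0.15. The pyruvate dehydrogenase subunit Pdhb rose 2.77-fold, and the kinase Pdk1, which switches that complex off, rose 2.63-fold. Pdk4, another such kinase, fell by 1.53 on the log2 scale (edgeR adjusted p = 0.0418), and Pdp1, the phosphatase that switches the complex on, fell by 1.33 (edgeR adjusted p = 0.00196). In Bap1LysM 8 rose and 3 fell, where 21.2% of all genes rose and 17.7% fell, and Pdk4 fell by 2.35 on the log2 scale (edgeR adjusted p = 0.025). Of 8 genes that draw on the cycle, 4 rose and 3 fell in Bap1flox and 2 rose and 3 fell in Bap1LysM. Among them the mitochondrial malic enzyme Me2 rose 2.38-fold in Bap1flox, and the mitochondrial phosphoenolpyruvate carboxykinase Pck2 fell by 1.5 on the log2 scale.

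Genes that act on itaconate followed. Itaconate is tied to CoA by succinyl-CoA synthetase and degraded further with the help of Clybl. Of 5 genes on this list, Acod1 included, all 5 rose with RANKL in Bap1flox, where 29.4% of all genes rose, and 4 in Bap1LysM, where 21.2% did, Acod1 being the exception. The list shares Acod1 and Suclg1 with the members. Clybl rose 2.61-fold in Bap1flox and 2.34-fold in Bap1LysM.

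Of 12 tested genes that bacterial products or interferon induce together with Acod1, 4 rose and 3 fell in Bap1flox, where 58.1% of all genes passed. In Bap1LysM 4 rose and 1 fell, where 38.9% passed. Nos2, inducible nitric oxide synthase, was at 0 to 0.0808 CPM in Bap1flox BMMs and at 0.369 to 4.09 CPM in the 6 Bap1flox preOC libraries. Cxcl10, an interferon-induced chemokine, rose 7.48-fold in Bap1flox (edgeR adjusted p = 0.00539). Irf8, a myeloid transcription factor, fell by 2.1 on the log2 scale in Bap1flox and by 1.54 in Bap1LysM. Il1b and Il6 were too low to be tested.

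To compare the genotypes in the same genes, Bap1LysM preOCs were set against Bap1flox preOCs in 11 libraries. The Bap1flox mice have no Cre, so loss of Bap1, presence of Cre and disruption of Lyz2 cannot be told apart in the genotype contrasts. Idh2 was lower, and it was the only member to pass, 1 of 9 where 15.8% of 12929 genes passed, 7.12% higher and 8.68% lower. The groups did not overlap for 1 of the 9 members, again Idh2, as for 9.68% of genes. The median log2 fold change was 0.09 over the members and -0.01 over all genes, with 6 of the 9 above 0.

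Idh2 ranged from 187 to 259 CPM with a median of 210.3 in the 6 Bap1flox preOC libraries, and was at 105, 165, 171, 169 and 166 CPM in Bap1LysM libraries 1, 2, 4, 5 and 6. All 5 lay under the lowest Bap1flox library, and the library labelled Bap1LysM OC 1 was lowest. The difference was 1.43-fold (log2 fold change -0.51, SE 0.13, edgeR adjusted p = 0.0234). It was -0.56 within replicates 1 to 3 (edgeR adjusted p = 0.245) and -0.53 within replicates 4 to 6 (edgeR adjusted p = 0.003), and -0.40 without Bap1LysM OC 1 (edgeR adjusted p = 0.0124). Without Bap1flox OC 4 or Bap1flox OC 5 the edgeR adjusted p was 0.0614 and 0.0552, so the call was lost without either. With the library set as a term it was -0.54 (edgeR adjusted p = 0.00252).

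Idh1 went the opposite way without passing. It ranged from 124 to 218 CPM with a median of 151 in Bap1flox preOCs and was at 171, 146, 257, 270.2 and 247 CPM in Bap1LysM libraries 1, 2, 4, 5 and 6. The groups overlapped through Bap1LysM OC 1 and 2, while libraries 4 to 6 stood above every Bap1flox library. The log2 fold change was 0.47 (SE 0.19, edgeR adjusted p = 0.117), and 0.33 and 0.46 within the first and second library set (edgeR adjusted p = 0.229 and 0.0101). Without Bap1LysM OC 1 it was 0.54 (edgeR adjusted p = 0.0684), and without Bap1LysM OC 2 it passed at 0.58 (edgeR adjusted p = 0.0376). With the set as a term it passed at 0.40 (edgeR adjusted p = 0.00258).

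Ogdh ranged from 289 to 409 CPM with a median of 354 in Bap1flox preOCs and was at 336, 489.5, 523, 470.2 and 473 CPM in Bap1LysM libraries 1, 2, 4, 5 and 6. Only Bap1LysM OC 1 fell within the Bap1flox range. The log2 fold change was 0.36 (SE 0.12, edgeR adjusted p = 0.0566), and 0.45 without that library (edgeR adjusted p = 0.00596). Ogdh also passed with RLE size factors, with all 17 libraries in one edgeR fit, with DESeq2 and with voomWithQualityWeights (adjusted p = 0.0446, 0.0254, 0.0138 and 0.00079). Suclg1 ranged from 83.9 to 113 CPM with a median of 96 in Bap1flox preOCs and was at 82.4, 116, 129.9, 130.1 and 138 CPM in Bap1LysM preOCs. Here the library labelled Bap1LysM OC 1 lay below every Bap1flox library, and the other Bap1LysM libraries lay above every one. The log2 fold change of Suclg1 was 0.27 (SE 0.13, edgeR adjusted p = 0.169), and 0.37 without Bap1LysM OC 1 (edgeR adjusted p = 0.0143). With the replicate number as a block 4 members passed where 32.8% of genes did: Idh1 at 0.40, Ogdh at 0.35 and Suclg1 at 0.24 were higher and Idh2 at -0.54 lower (edgeR adjusted p = 0.0109, 0.00649, 0.043 and 0.00429). A term for the library set left the same 4 past the threshold, where 33.6% of genes passed. With library set means removed, same-numbered libraries 4 to 6 correlated at 0.01, -0.15 and 0.06.

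The other 5 members had small differences with overlapping groups. The log2 fold change was 0.07 for Cs, -0.08 for Idh3a, 0.09 for Fh1 and -0.15 for Mdh2, with SE of 0.12 to 0.18 and edgeR adjusted p of 0.584 to 0.787. Without Bap1LysM OC 1 these were 0.16, 0.05, 0.23 and -0.04, with edgeR adjusted p of 0.209 to 0.863. Acod1 ranged from 9.42 to 26.3 CPM with a median of 14.8 in Bap1flox and was at 30.2, 15.5, 16.1, 10.5 and 16.1 CPM in Bap1LysM libraries 1, 2, 4, 5 and 6 (log2 fold change 0.21, SE 0.31, edgeR adjusted p = 0.679). Without Bap1LysM OC 1, the highest library, it was -0.08 (edgeR adjusted p = 0.847). Within each genotype the highest Acod1 value was that of preOC library 1, which also held the lowest summed osteoclast markers: 6659 CPM against 10500 to 14000 CPM in the other Bap1flox preOC libraries, and 6053 CPM against 13350 to 16480 CPM in the other Bap1LysM ones. The part of this in the Acod1 values was not tested.

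**Figure D5:**
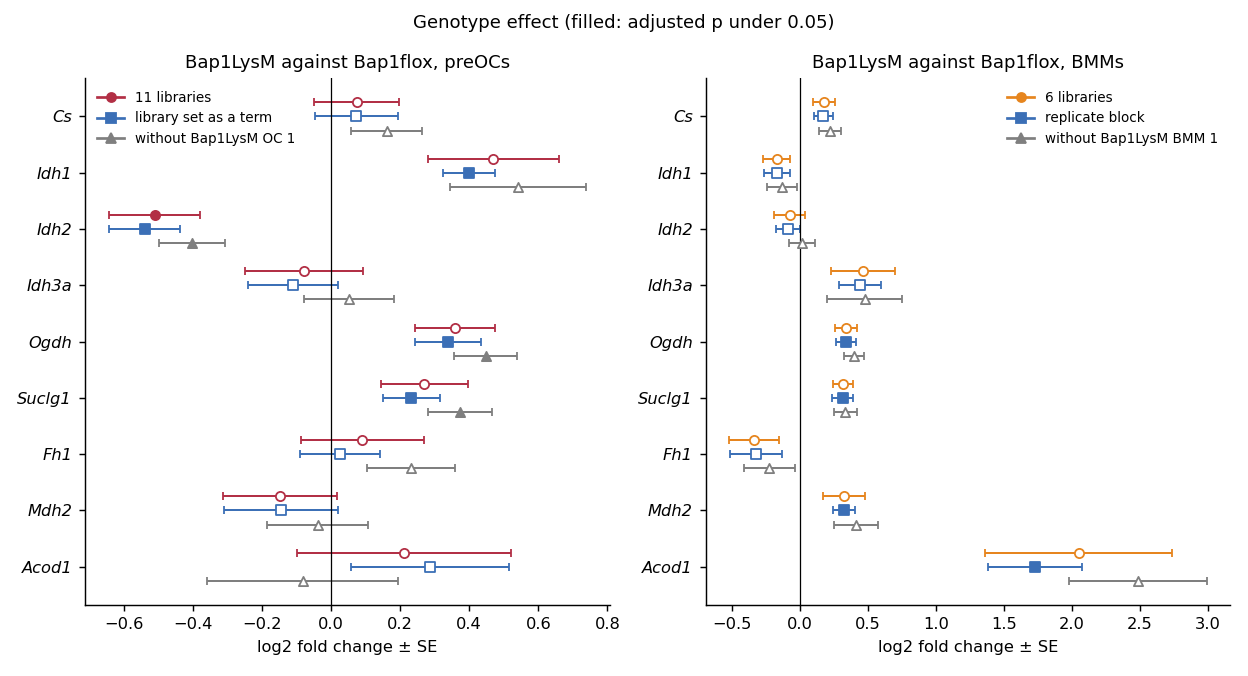
Log2 fold change (x axis) of Bap1LysM against Bap1flox for each member (y axis), in preOCs with 11 libraries, with the library set as a term and without Bap1LysM OC 1 (left), and in BMMs with 6 libraries, with a replicate block and without Bap1LysM BMM 1 (right); bars are SE and filled symbols passed the adjusted p. Idh2 is below 0 and filled in all 3 preOC series, at -0.51, -0.54 and -0.40, and no member is filled in BMMs with 6 libraries or without Bap1LysM BMM 1.

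Markers of other cells moved with genotype in preOCs. Of 11 neutrophil markers tested, 8 were higher in Bap1LysM, and the listed genes summed to 95.8 to 253 CPM in Bap1flox and 194 to 649 CPM in Bap1LysM. Mmp8 of the same list went the other way without passing (log2 fold change -1.07, SE 0.42, edgeR adjusted p = 0.1085). None of the listed markers of these cell types was at 0 in all libraries of a group. Of 3 B and plasma cell markers tested 2 were higher, Jchain 16.1-fold and Ighm 2.54-fold (edgeR adjusted p = 0.000342 and 0.049), with sums over the listed genes of 7.1 to 15.8 CPM in Bap1flox and 11.2 to 47.6 CPM in Bap1LysM. Of 3 dendritic cell markers 2 were higher, Ccr7 4.19-fold and Zbtb46 2.21-fold (edgeR adjusted p = 0.000342 and 0.0293), with sums of 41.1 to 181 and 99.7 to 158 CPM. Of 6 stromal markers 0 passed by edgeR, 1 at an unadjusted p under 0.05, with a median log2 fold change of -0.93, 0 above 0, and sums of 239 to 2277 and 127 to 1442 CPM. Of 10 osteoclast markers, Dcstamp was lower and none was higher. Of 8 macrophage markers 2 were higher, and their sum was 3707 to 4929 CPM in Bap1flox and 3770 to 5813 CPM in Bap1LysM. In bulk libraries fewer cells of a type and less RNA per cell cannot be told apart, and the part of these markers in the Idh2 value was not tested. Without Bap1LysM OC 1, 9 neutrophil markers and the same 2 B and plasma and 2 dendritic cell markers were higher, and 0 of 6 stromal markers passed by edgeR, again with 1 at an unadjusted p under 0.05. Of the osteoclast markers Calcr and Oscar were higher and Dcstamp lower there, and of the macrophage markers Csf1r and Mertk were higher and Cd14 lower.

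In the wider cycle, 0 of 20 genes were higher and 1, Idh2, was lower in Bap1LysM preOCs, with a median of 0.08. Of 19 entry genes 0 were higher and 3 lower, a share near the 15.8% of all genes that passed. Pcx, pyruvate carboxylase, which refills oxaloacetate, was at 13.7 to 17.4 CPM in Bap1flox and 5.3 to 7.95 CPM in Bap1LysM preOCs, 2.23-fold lower with no overlap (log2 fold change -1.16, SE 0.13, edgeR adjusted p = 0.00047). Gpt2, the mitochondrial alanine transaminase that makes 2-oxoglutarate from glutamate, was at 18.6 to 21.5 CPM in Bap1flox and 11 to 13.5 CPM in Bap1LysM preOCs (1.55-fold lower, edgeR adjusted p = 0.00115). Pdk1 was 1.45-fold lower (edgeR adjusted p = 0.0388). Of 8 exit genes 1 passed: Me1, the cytosolic malic enzyme that like Idh1 makes NADPH in the cytosol, was 1.47-fold higher (edgeR adjusted p = 0.0101). Among the genes often induced with Acod1, 1 of 11 passed: Cd40, a costimulatory receptor, was 2.43-fold higher (edgeR adjusted p = 0.0029). Without Bap1LysM OC 1, where 24% of genes passed, these 5 genes passed in the same direction: Pcx at a log2 fold change of -1.12, Gpt2 at -0.65, Pdk1 at -0.44, Me1 at 0.49 and Cd40 at 1.21 (edgeR adjusted p = 0.000379, 0.000754, 0.0488, 0.0134 and 0.00381). In that fit 5 genes of the wider cycle were higher, Idh3b, Ogdh, Suclg1, Suclg2 and Sdha, and Idh2 was lower, while Aldh5a1 of the entry list was higher and Cxcl10 lower. Of the 5 itaconate genes 0 passed by edgeR with all libraries, 0 at an unadjusted p under 0.05, at a median of 0.22, and 2 were higher without Bap1LysM OC 1, Suclg1 and Suclg2.

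In BMMs, 0 of the 9 members passed by edgeR, where 5.32% of 13028 genes did. At an unadjusted p under 0.05 there were 3, Ogdh, Suclg1 and Acod1, where 26.2% of all genes were. DESeq2 called these 3 as higher in Bap1LysM, where it called 15.9% of genes, and voomWithQualityWeights called Ogdh and Suclg1, where it called 13.6%. The groups did not overlap for 3 of the 9 members, Cs, Ogdh and Suclg1, as for 34.2% of genes.

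Ogdh was at 196, 206 and 208 CPM in Bap1flox BMMs and 236, 269.5 and 268 CPM in Bap1LysM BMMs, each Bap1LysM library above each Bap1flox one (log2 fold change 0.34, SE 0.08, edgeR adjusted p = 0.0597). Suclg1 was at 42.0, 44.2 and 43.5 CPM in Bap1flox and 52.7, 56.7 and 52.6 CPM in Bap1LysM BMMs (log2 fold change 0.32, SE 0.07, edgeR adjusted p = 0.0597). Cs was at 203 to 219 CPM in Bap1flox and 224 to 257 CPM in Bap1LysM BMMs (log2 fold change 0.17, edgeR adjusted p = 0.228). With the replicate number as a block 4 members passed where 16.2% of genes did, all higher: Ogdh at 0.34, Suclg1 at 0.32, Mdh2 at 0.32 and Acod1 at 1.73 (edgeR adjusted p = 0.0336, 0.0446, 0.0473 and 0.0291). Idh2, the member lower in preOCs, was at 106, 112 and 109.7 CPM in Bap1flox and 89.6, 118 and 103 CPM in Bap1LysM BMMs, with overlapping groups (log2 fold change -0.08, SE 0.11, edgeR adjusted p = 0.674). Mdh2 was at 0.32, Idh3a at 0.46, Fh1 at -0.34 and Idh1 at -0.17 with all 6 libraries and no block (edgeR adjusted p = 0.237, 0.254, 0.282 and 0.308). Without Bap1LysM BMM 1 0 of the 9 members passed by edgeR, where 2.84% of genes did. An unadjusted p under 0.05 was reached by 5, where 24.2% of genes reached it. These were Ogdh at 0.40, Suclg1 at 0.33, Cs at 0.22, Mdh2 at 0.41 and Acod1 at 2.49. The rest were Idh3a at 0.48, Fh1 at -0.23, Idh1 at -0.13 and Idh2 at 0.01. The edgeR adjusted p of the 9 ran from 0.0538 to 0.935.

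Acod1 in BMMs had a log2 fold change of 2.05 (SE 0.69, edgeR adjusted p = 0.123), with Bap1LysM libraries at 2.78, 6.67 and 19.5 CPM against 1.41, 2.58 and 2.95 CPM. The groups overlapped through Bap1LysM BMM 1, which has the departing Lyz2 level: without it the value was 2.49 (SE 0.51, edgeR adjusted p = 0.0649), and without Bap1LysM BMM 3 it was 1.04. That library also had the highest summed neutrophil markers of the 6, 374 CPM against 250 to 312 CPM. On that list 0 of 11 tested genes passed by edgeR in BMMs. An unadjusted p under 0.05 was reached by 2 of them, Mpo higher (log2 fold change 1.00) and Mmp8 lower (-1.34). The part of the neutrophil markers in the Acod1 value was not tested. Of 3 B and plasma cell markers tested in BMMs Jchain was 8.39-fold higher and Cd79b 2.07-fold lower (edgeR adjusted p = 0.0221 and 0.0363), and of 8 macrophage markers Mrc1 was 1.48-fold lower (edgeR adjusted p = 0.0451), while 0 of 5 stromal and 0 of 2 dendritic cell markers passed by edgeR, with 1 and 0 at an unadjusted p under 0.05. Without Bap1LysM BMM 1 Jchain was higher and the dendritic cell marker Itgax lower, while Cd79b and Mrc1 kept log2 fold changes of -1.08 and -0.50, against -1.05 and -0.56 with all 6 libraries, without passing (edgeR adjusted p = 0.0728 and 0.0812), and 0 of 11 neutrophil markers passed by edgeR, 0 at an unadjusted p under 0.05. The part of these markers in the members' values was not tested. Tnf, encoding the inflammatory cytokine, was 2.04-fold higher in Bap1LysM BMMs (edgeR adjusted p = 0.0266), the only gene of 11 tested from the list often induced with Acod1 to pass. Of 19 entry genes the kinases Pdk2 and Pdk3 were 1.98-fold and 1.48-fold lower (edgeR adjusted p = 0.0457 for both), and of the exit genes Me1 was 1.35-fold higher and Pck2 1.85-fold lower (edgeR adjusted p = 0.0429 and 0.0226). Without Bap1LysM BMM 1, Me1 at a log2 fold change of 0.50 and Pck2 at -0.78 passed (edgeR adjusted p = 0.0441 and 0.0373), while Tnf at 1.02, Pdk2 at -0.94 and Pdk3 at -0.50 did not (edgeR adjusted p = 0.0606, 0.101 and 0.0885). Gpt2, which had an edgeR adjusted p of 0.0506 with all 6 libraries, was lower there (edgeR adjusted p = 0.0441). In the wider cycle 0 of 20 genes passed by edgeR in BMMs, with 5 at an unadjusted p under 0.05, and 6 without Bap1LysM BMM 1, where again 0 passed. Among the itaconate genes 0 of 5 passed by edgeR in either fit, with 3 at an unadjusted p under 0.05 in each.

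The members were last compared with the 13380 genes with a CPM above 1 in at least 4 of the 17 libraries by the Pearson r of log2 CPM, a description in which the points share cell stage, genotype and library set. Mdh2 was most like Samm50 (r = 0.995) and Tufm (r = 0.993), Cs most like Stard7 (r = 0.991) and Mfn2 (r = 0.99), and Idh3a most like Nsun2 (r = 0.995) and Hspd1 (r = 0.994). Suclg1 was most like Chchd3 (r = 0.995) and Mapk6 (r = 0.993), Ogdh most like Etfa (r = 0.978) and Ctbp2 (r = 0.976), and Fh1 most like Eif4b (r = 0.964) and Sntb1 (r = 0.962). Idh2 was most like Lap3 (r = 0.968) and Lhpp (r = 0.958). Idh1, which fell with RANKL, was most like Pcyox1 (r = 0.985) and Pygl (r = 0.984). Acod1 was most like Ptges (r = 0.92), which encodes a prostaglandin E synthase, then Psmc2 (r = 0.887), Rpia (r = 0.879), Nos2 (r = 0.871) and Psmc5 (r = 0.868). Among the members themselves r was 0.99 for Cs and Mdh2, -0.65 for Idh1 and Mdh2, and 0.72 for Acod1 and Mdh2.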

How the data were processed

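Poly-A selected RNA was sequenced as paired 150-base reads, and the authors aligned reads with STAR 2.5.1a to GRCm38 (Ensembl annotation) and assigned reads to genes with featureCounts 1.4.6-p5, keeping those with a unique alignment and a single gene. The strand setting is not given in the sources used here. The deposited counts are raw counts per gene, the deposited CPM values equal each count over the library total, and the deposited RPKM values are CPM per kilobase; only counts were analysed. Of 41388 genes, 40254 had a symbol in GENCODE M21, and 355 ribosomal RNA genes were left out.

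Counts were tested with edgeR 4.0.16 in R 4.3.3 (quasi-likelihood test, TMM factors), with Benjamini-Hochberg adjustment over all genes tested and a threshold of 0.05. A CPM over 1 was required in 4 of the 11 preOC, 2 of the 6 BMM, or 2 of the 11 replicate 1 to 3 libraries, the last fitted together. Levels printed use TMM factors over all 17 libraries. With a biological coefficient of variation of 0.274 in preOCs, 0.207 in BMMs and 0.21 in replicates 1 to 3, spread between libraries and not counting error sets the precision.

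Same-numbered libraries deviated together from their group means (correlation 0.61, 0.73, 0.39, 0.67 and 0.48 for preOC numbers 1, 2, 4, 5 and 6, and 0.54, 0.36 and 0.41 for BMM numbers 1, 2 and 3). With library set means removed the preOC values were 0.45, 0.38, 0.01, -0.15 and 0.06. Blocked values are given where the block changed a member's call.

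Alternatives were limma 3.58.1 voomWithQualityWeights, which the authors used, DESeq2 1.42.0, other factors and filters, the block, the library set and each library left out; the scripts were tested on simulated data. Every member is named in every comparison, and of each list up to 4 genes past the threshold with the largest change. The TCA list has 20 genes and leaves out 1 gene of the cycle, not reported here. From that list further called genes are named, chosen after their values were seen. Members and lists were chosen with earlier results of these data known. The search for motifs and the Idh1 to Idh2 ratio were added later.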

Additional observations from a re-analysis of the deposited data

Results flagged for a closer look

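Of 18 sets of preOC values tested (9 members in each genotype), 4 held a library farther from the rest than Dixon's test at the 95% level allows, where chance gives about 1 in 20. All 4 were in the library labelled Bap1LysM OC 1. Idh2 was at 105 CPM there against 165 to 171 CPM in the other 4 Bap1LysM preOC libraries, Idh3a at 84.3 CPM against 150.3 to 155 CPM, Ogdh at 336 CPM against 470.2 to 523 CPM, and Acod1 at 30.2 CPM against 10.5 to 16.1 CPM. The genes come from 1 library, so the 4 are not independent. That library also had Lyz2 at 79.7% of the Bap1flox mean and the lowest summed osteoclast markers of the preOC libraries, 6053 CPM, and the part of either in these values was not tested. A test of the difference of the genotype effect between the library sets, chosen after seeing the data, passed for no member (SE 0.16 to 0.48, edgeR adjusted p from 0.791 to 0.997). The first set held 2 Bap1LysM preOC libraries, 1 of them Bap1LysM OC 1, so these differences have wide errors. The interaction of genotype and RANKL passed for no member by edgeR, where 0% of all genes passed.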

How the results depend on the processing

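Of 45 single-gene results, 15 passed the threshold, and their 289 alternative values kept direction; 5 of these lost the threshold. In preOCs, where 1 member differed by genotype, the count was 2 with RLE size factors (16.1% of all genes called), DESeq2 (22.5%) or all 17 libraries in one fit (18.9%), 4 with voomWithQualityWeights (54.9%), the replicate block (32.8%), the library set as a term (33.6%), replicates 4 to 6 alone (33.8%), or the set term without Bap1LysM OC 1 (39%), and 0 with replicates 1 to 3 alone, where 0 of all genes passed by edgeR and 2336 had an unadjusted p under 0.05. Leaving out each library gave 0 to 3, where 8.32 to 24% of all genes passed, and the 3 came without Bap1LysM OC 1, at 24%. In BMMs, where 0 members differed, voomWithQualityWeights gave 2, DESeq2 3 and the replicate block 4, and leaving out each library gave 0 each time, where 0.0311 to 5.83% of all genes passed. The RANKL counts were 8 in Bap1flox for each library left out, where 50.2 to 61.6% of all genes passed, and 5 to 8 in Bap1LysM, where the 5 came without Bap1LysM OC 2, at 23.2% of all genes, and the 8 without Bap1LysM OC 1, at 44.9%, and the block changed no other call of a member; the causes were not tested.

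Reversals were confined to values that did not pass. In the preOC genotype contrast Idh3a was 0.02 and Acod1 -0.01 with voomWithQualityWeights, Fh1 was -0.11 in replicates 1 to 3 alone, and Idh3a was 0.01 with the set term without Bap1LysM OC 1. With each library left out Cs ran from -0.02 to 0.16, Idh3a from -0.14 to 0.05 and Acod1 from -0.08 to 0.44, and in BMMs Idh2 from -0.19 to 0.01. For the interaction Ogdh was 0.01 with the block and Fh1 -0.01 with voomWithQualityWeights, and without both Bap1LysM replicate 1 libraries Cs was 0.22, Ogdh 0.18 and Suclg1 0.05. With each library left out the interaction ran from -0.49 to 0.26 for Cs, -0.30 to 0.24 for Ogdh, -0.42 to 0.06 for Suclg1 and -0.14 to 0.54 for Fh1. Tests without both replicate 1 libraries, of the set difference, of the set term without Bap1LysM OC 1 and of the lists without a Bap1LysM replicate 1 library were chosen after seeing the data. A stricter filter equals the main one for replicates 1 to 3.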
